A study of Rattus norvegicus with 3 samples.

Results

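The comparison of 1 kidney taken at day 2 of ethylene glycol (EG) with 1 control kidney was read across every gene of a whole-transcript array. Its members were all 20667 genes that had at least 1 transcript cluster naming that gene alone, each read from its brightest cluster, as the deposited log2 signal on day 2 minus that of the control. A value under 5.34 log2, the 95th percentile of the olfactory receptor (Olr) genes, which a kidney is not expected to transcribe widely, was set to that level, called the background level below. Of the 20667 genes, 13238 (64.1%) were at or above it on at least 1 of both arrays and are called measured. The series holds 3 male rats, with 1 kidney array each: 1 control rat, 1 rat at day 2 of EG and 1 rat at day 5 of EG. EG was given by mouth at 8 g/kg. The labels name no strain, age or genotype and no vehicle for the control, and they leave unsettled whether EG was given once or over the stated days. With 1 array a side the spread between animals is unknown, so every value below is a description of these arrays and carries no test.

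EG is an antifreeze solvent that alcohol and aldehyde dehydrogenases convert to glycolate, and further oxidation through glyoxylate yields oxalate. Oxalate combines with calcium into crystals that lodge in the kidney tubule. The proximal tubule, the segment that reclaims most filtered solutes, replaces injured cells by letting surviving cells flatten, divide and regain their transporters, and injured tubules are known to make KIM-1, osteopontin and clusterin.

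The tissue label was checked against kidney genes on both arrays. Umod (uromodulin of the thick ascending limb) was at 18.79 log2 in the control and 18.69 on day 2, and Lrp2 (megalin, the endocytic receptor of the proximal tubule) was at 19.19 and 18.18. Slc12a1 (the loop diuretic target) was at 17.15 and 16.64, and Aqp2 (the water channel of the collecting duct) at 12.61 and 12.64. Tubule segments from cortex to collecting duct were thus present on both arrays. Urothelial and adrenal cortex markers were measured for 1 gene each (Psca and Fdx1), and the uroplakins and steroid hydroxylases on those lists were under the background level on both arrays. Array medians were 6.21 log2 in the control and 6.26 on day 2.

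At EG day 2, 603 genes (4.56% of the 13238 measured) were higher by 2-fold or more than in the control and 332 (2.51%) were lower by 2-fold or more. At least 4-fold differences numbered 49 higher (0.37%) and 12 lower (0.0906%). In counts of gene lists below, higher and lower mean by 2-fold or more. The difference was lopsided at its far end. At 8-fold or more there were 14 genes higher and 2 lower, and at 16-fold or more 9 higher and 0 lower. Most genes lay close together, with 9984 (75.4%) within 1.5-fold, a median difference of 0.07 log2 and a central 90% between -0.78 and 0.96. Higher genes made up 64.5% of the 2-fold differences, and quantile normalization of the arrays lowered that share to 53.9%.

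**Figure D1:**
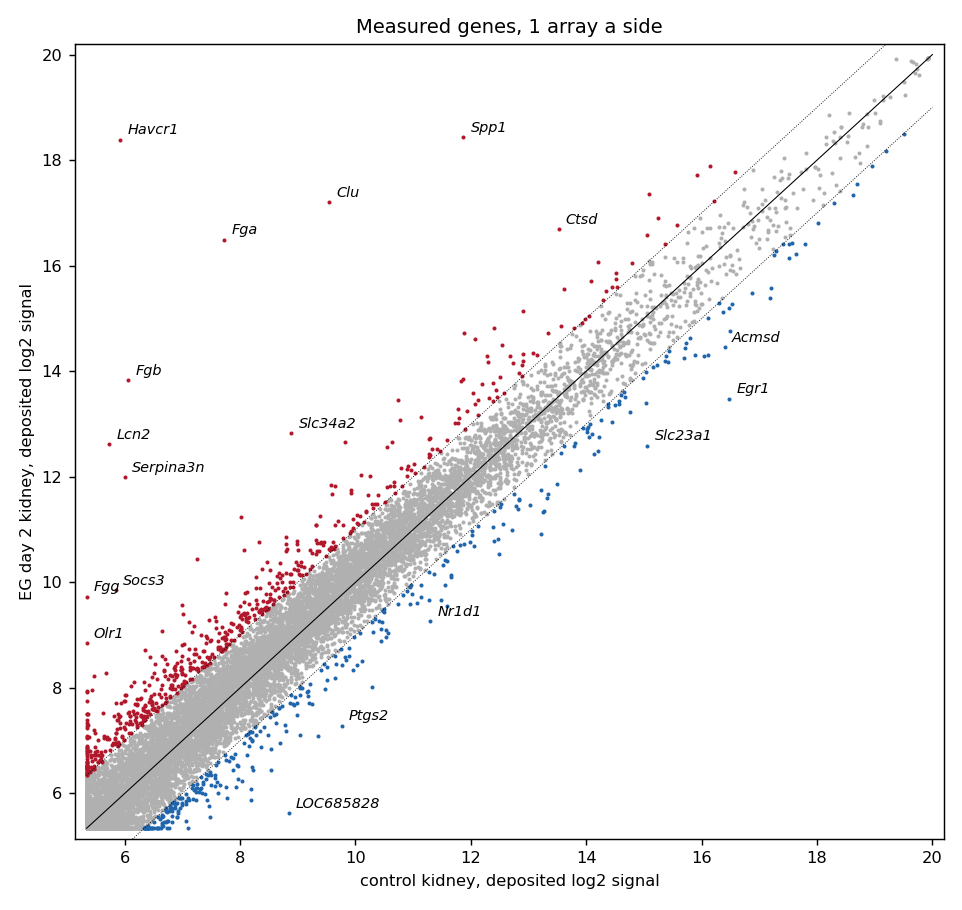
Deposited log2 signal of each measured gene in the control kidney (horizontal axis) and the EG day 2 kidney (vertical axis), 1 array a side, with values under the background level of 5.34 drawn at that level. The solid line marks equal signal, the dotted lines a 2-fold difference, red points the 603 genes higher by 2-fold or more and blue points the 332 lower by 2-fold or more; Havcr1, Fga, Clu and Spp1 stand far above the diagonal.

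The farthest genes were injury and plasma protein genes. Havcr1, which encodes KIM-1, a receptor by which injured tubule cells engulf dead neighbours, was at 5.92 log2 in the control and 18.39 on day 2, a difference of 12.47. The day 5 array read 14.36. Clu (clusterin, a secreted chaperone) was at 9.54, 17.20 and 17.29 in the control, on day 2 and on day 5, and Spp1 (osteopontin, a phosphoprotein that binds calcium crystals) at 11.87, 18.43 and 18.43. Lcn2 (the iron-scavenging protein NGAL) was at 5.73, 12.62 and 12.08. Havcr1 and Lcn2 thus lay close to the background level in the control, and all 4 genes were far above their control level on both treated arrays.

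Fibrinogen, the plasma protein that clots into fibrin, is assembled from 3 chains made mainly in the liver. Fga (alpha chain) was at 7.72 log2 in the control and 16.49 on day 2, and Fgb (beta chain) was at 6.06 and 13.83. Fgg (gamma chain) was below the background level in the control but at 9.73 on day 2, at least 21.0-fold higher. All 3 chains were far higher on day 2 than in the control. Levels of different probes cannot be set against each other, so no ratio of chains is given. Markers of liver tissue did not stand with them: of 11 measured liver parenchyma genes, 0 were higher and 0 lower, the median was -0.13 (0.12 with no background level), Apoa1 and Cps1 were under the background level on both arrays, and Alb (albumin) was at 6.46 and 7.03.

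The 3 fibrinogen genes lie side by side in the rat genome, and by the order of genes in RefSeq they and Lrat formed the longest run of neighbouring genes higher by 2-fold or more on the array. Lrat, which encodes the enzyme that stores retinol as esters, was below the background level in the control but at 7.09 on day 2, at least 3.36-fold higher. It was the 1 run of 4 genes. There was also 1 run of 3 (Mpeg1, Dtx4 and Fam111a), 28 pairs were higher together and 7 pairs were lower together. Just outside the run, Plrg1 differed by 0.58 and Rbm46 by 0.11, and Sfrp2, farther along, by -1.44. Dchs2, between Plrg1 and Sfrp2, was under the background level on both arrays. Havcr1 also had a neighbour that was higher, Timd2, a gene of the same TIM receptor family whose product binds ferritin in mice, at 8.06 and 10.61, while its neighbours Timd4, Havcr2 and Dppa1 were under the background level on both arrays.

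The start regions of the fibrinogen genes, Havcr1 and Serpina3n are shown, and those of Lrat and Timd2 were searched but are not shown. The neighbouring genes were searched because they differed together. Signalling through gp130, the receptor subunit shared by the interleukin 6 family, also acts on fibrinogen genes in liver through STAT3. Each sequence runs from 250 bases before the gene's RefSeq start to 50 bases after it in assembly GRCr8, whereas the array was annotated on rn6. Capitals mark matches to the STAT motif TTCNNNGAA or, read on either strand, to GTTAAT, the HNF1 core of the liver and kidney factor HNF1. They are Fga at chr2:170671919-170672218 on the plus strand, Fgb at chr2:170700826-170701125 on the minus strand and Fgg at chr2:170652833-170653132 on the plus strand. Serpina3n, an acute phase serine protease inhibitor, lies at chr6:129088142-129088441 and Havcr1 at chr10:31629528-31629827, both on the plus strand.
Fga: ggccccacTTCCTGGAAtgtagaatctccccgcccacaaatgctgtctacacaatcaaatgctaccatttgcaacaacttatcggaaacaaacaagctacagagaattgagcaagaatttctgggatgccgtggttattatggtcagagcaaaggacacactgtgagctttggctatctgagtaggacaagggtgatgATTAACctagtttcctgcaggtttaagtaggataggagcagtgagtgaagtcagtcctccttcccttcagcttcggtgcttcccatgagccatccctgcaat
Fgb: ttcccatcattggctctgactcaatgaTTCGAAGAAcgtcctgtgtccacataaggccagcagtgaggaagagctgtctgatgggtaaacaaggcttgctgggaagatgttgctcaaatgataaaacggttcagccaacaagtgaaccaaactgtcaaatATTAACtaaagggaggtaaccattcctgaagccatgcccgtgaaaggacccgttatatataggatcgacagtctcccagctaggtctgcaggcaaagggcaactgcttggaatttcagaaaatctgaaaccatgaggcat
Fgg: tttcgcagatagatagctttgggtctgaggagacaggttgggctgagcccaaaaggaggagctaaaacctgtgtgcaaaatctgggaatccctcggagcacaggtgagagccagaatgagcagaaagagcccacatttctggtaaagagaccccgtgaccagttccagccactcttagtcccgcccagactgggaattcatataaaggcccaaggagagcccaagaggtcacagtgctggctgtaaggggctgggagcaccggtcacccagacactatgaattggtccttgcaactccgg
Serpina3n: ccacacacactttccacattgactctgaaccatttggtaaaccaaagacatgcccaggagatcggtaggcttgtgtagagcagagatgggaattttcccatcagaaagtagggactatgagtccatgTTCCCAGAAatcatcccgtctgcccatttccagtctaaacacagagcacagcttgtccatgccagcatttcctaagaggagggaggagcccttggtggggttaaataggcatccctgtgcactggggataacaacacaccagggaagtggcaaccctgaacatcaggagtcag
Havcr1: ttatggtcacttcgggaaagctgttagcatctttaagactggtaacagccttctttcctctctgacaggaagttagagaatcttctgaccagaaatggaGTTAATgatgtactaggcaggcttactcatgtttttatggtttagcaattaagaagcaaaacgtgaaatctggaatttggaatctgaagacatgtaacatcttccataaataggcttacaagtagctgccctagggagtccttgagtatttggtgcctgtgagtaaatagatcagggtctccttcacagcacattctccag
Fga held TTCCTGGAA 242 bases before its start and an HNF1 core 52 bases before it. Fgb held TTCGAAGAA 223 bases before its start and an HNF1 core 90 bases before it. Fgg held neither within this window. The windows of Lrat and Timd2 held neither as well. Serpina3n held TTCCCAGAA 123 bases before its start. Havcr1 held an HNF1 core 151 bases before its start and no STAT motif. Of 9934 measured genes with such a window, 675 (6.80%) held the STAT motif and 491 (4.94%) the HNF1 core. The STAT motif stood in 5 of 36 genes higher by 4-fold or more (13.9%) and in 29 of 464 higher by 2-fold or more (6.25%), so at the 2-fold threshold the share was below that of all measured genes. The AP-1 motif TGAGTCA was searched in the same windows. It stood in 4 of the 36 genes (11.1%) and in 21 of the 464 (4.53%), against 3.54% of all measured genes. A match of letters is a description of the window and not a binding site.

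Other genes of the acute phase and of gp130 signalling were higher as well. Of 18 measured members, 7 were higher by 2-fold or more and 0 lower, the median being 0.81 against 0.07 over all measured genes. With no background level, which takes in members here called unmeasured, that median was 0.47. Serpina3n was at 6.0 log2 in the control, 11.99 on day 2 and 7.23 on day 5, a difference of 5.99 on day 2. The mean over its clusters differed by 2.61, but no further cluster of Serpina3n reached the background level in the control or on day 2. Socs3, the feedback inhibitor that gp130 signalling induces, was at 5.85, 9.85 and 7.15 on the same 3 arrays. Both were far higher on day 2 than on either of the other arrays. Lif, a cytokine that signals through gp130, was below the background level in the control but at 7.51 on day 2 (at least 4.50-fold higher). Osmr, the receptor subunit for oncostatin M, was higher by 2.02, and Il6st, gp130 itself, by 0.88. Lifr, the receptor subunit for LIF, was at 14.77 and 14.75. Il6, Saa4 and Hp were under the background level on every array.

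Complement, the cascade of plasma proteins that marks surfaces for removal, had 5 of 23 measured members higher by 2-fold or more and 0 lower. That is 21.7%, against 4.56% of all measured genes, and the median was 0.64. Clu, named above and also on the tubular injury list, is 1 of the 5 and differed most (7.66). C3, the central component, read 5.44 log2 in the control and 7.96 on day 2. C7, a part of the membrane attack complex, was at 15.06 and 16.58, and C1qb, a chain of the recognition molecule C1q that macrophages make, at 5.98 and 7.25. Among clotting and fibrinolysis genes other than fibrinogen, 3 of 23 were higher and 2 lower, the median being 0.20. Kng1 (kininogen) was higher by 2.44. F13b, the carrier subunit of factor XIII, was lower by a log2 difference of -1.15, and Plau (urokinase) was at 16.79 and 17.12. The study's title names complement and fibrinogen, so both lists were chosen in view of it.

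**Figure D2:**
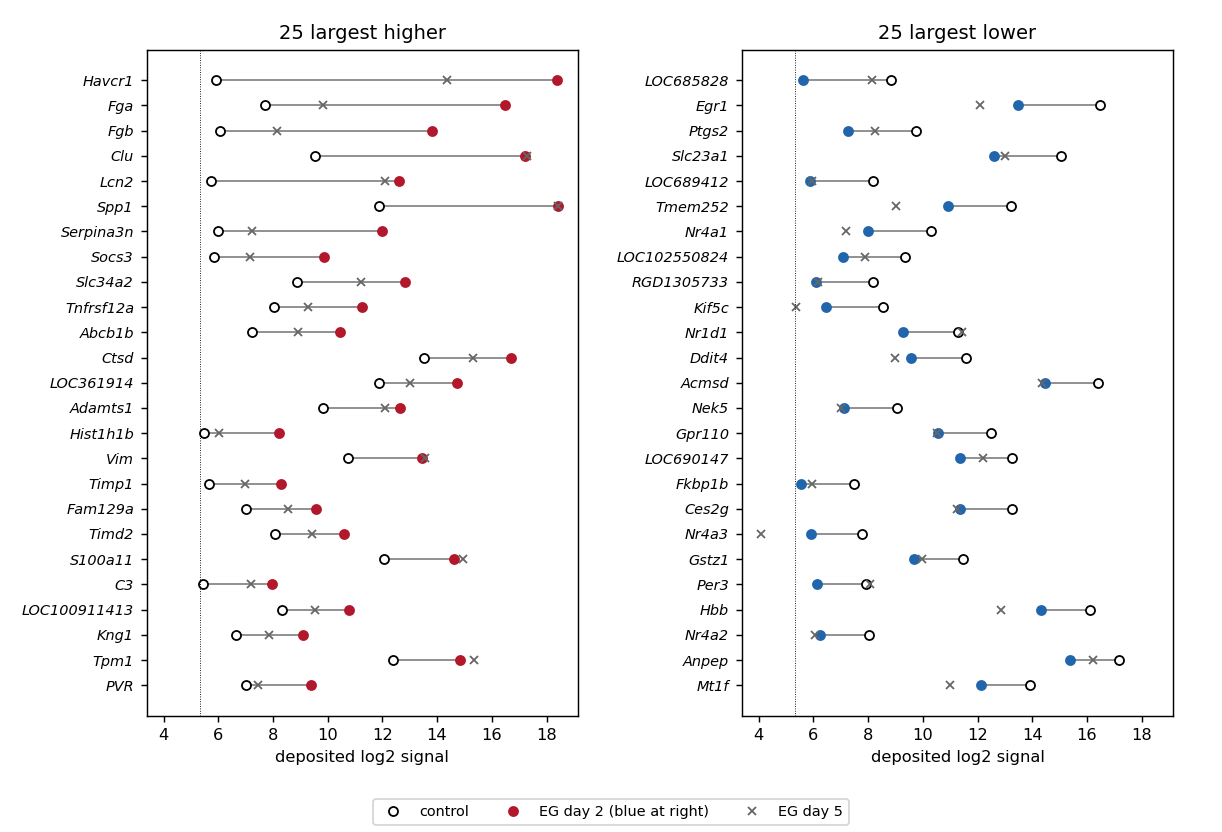
Deposited log2 signal of the 25 genes with the largest higher difference (left) and the 25 with the largest lower difference (right) between EG day 2 and control, among genes above the background level on both arrays. Open circles are the control, filled circles EG day 2 (red at left, blue at right), crosses EG day 5 and the dotted line the background level of 5.34; each point is 1 array, and for Fga, Fgb, Serpina3n and Socs3 the day 5 cross lies nearer to the control than to day 2.

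The wider tubular injury list had 14 of 22 measured members higher by 2-fold or more, 11 of them at least 4-fold, 0 lower and a median of 1.71. Tnfrsf12a (Fn14, the receptor for TWEAK) was higher by 3.22, Vim (vimentin, a filament of mesenchymal and dedifferentiated cells) by 2.72 and Timp1 (an inhibitor of metalloproteinases) by 2.61. The simple epithelial keratin Krt8 was at 9.37 and 10.59. Its partner Krt18 was below the background level in the control but at 7.39 on day 2 (at least 4.14-fold higher). The mean over its clusters differed by 0.47, but no further cluster of Krt18 reached the background level on either array. The list of keratins, vimentin and cadherins had 4 of 18 higher and 1 lower, the median being 0.18. Its lower member was the keratin Krt80, at 8.55 and 7.54. Epcam, the general epithelial adhesion gene, was at 14.87 and 15.09. Among genes for crystal binding and stone matrix, 10 of 22 were higher and 0 lower, the median being 0.76. They included S100a11 (2.54), Anxa2 (2.08), a membrane protein that binds calcium crystals, and Cd44 (2.36), the receptor for hyaluronan. Spp1, Anxa2 and Cd44 are members of both lists.

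Annexins, proteins that bind membranes in the presence of calcium, and S100 proteins, small calcium sensors, had 8 of 17 measured members higher by 2-fold or more and 0 lower, the median being 0.83. Anxa7 was higher by 1.85 and Anxa3 by 1.81, and S100a6 by 1.73. The median was 0.34 with the background level at the median of the Olr genes, which takes in further, dimmer members.

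Genes of the actin, myosin and tubulin skeleton were higher as a large group, with 19 of 45 measured members higher by 2-fold or more and 0 lower (median 0.79). Tpm1 (tropomyosin, which lines actin filaments) was at 12.40 log2 in the control and 14.82 on day 2. Tubb5 (a beta tubulin) was at 10.77 and 13.08, Myh9 (non-muscle myosin heavy chain) at 15.92 and 17.72, and Lcp1 (plastin, an actin bundler of leukocytes) at 10.54 and 12.57. The most abundant member, Actb (beta actin), was at 19.67 and 19.85, near the top of the scale. Markers of smooth muscle and pericytes had a smaller median, 0.14 (-0.03 with no background level), with 2 of 18 higher and 0 lower. Those higher were Tagln (transgelin), at 8.47 and 10.38, and Des (desmin), at least 2.77-fold higher. Myh11, the smooth muscle myosin, was at 6.76 and 5.83.

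Leukocyte lists differed from each other in their counts. Of 26 measured macrophage and monocyte genes, 15 were higher by 2-fold or more and 0 lower, the median being 1.14. Their levels ran from 4.23 to 15.24 log2 in the control and from 5.18 to 16.91 on day 2, and Cd163, Itgam, Trem2 and Ms4a7 were under the background level on both arrays. Msr1 (a scavenger receptor) was at 6.70 and 8.54, Clec4a3 (a lectin receptor of myeloid cells) at 7.03 and 8.83, and Ccr2 (the receptor for CCL2 on monocytes) at 6.42 and 8.06. Ptprc, the pan-leukocyte marker CD45, was higher by 1.32. Of 11 measured T and NK cell genes, 1 was higher and 1 lower, and Cd3d, Cd3e and Cd8a were under the background level on both arrays. Of 16 neutrophil genes only 3 were measured, S100a8, S100a9 and Mpo were under the background level on both arrays, and Lcn2, the 1 member that was higher, is also made by tubules. In whole tissue, more cells of a type and more RNA per cell cannot be told apart, and the same holds for fewer cells and less RNA.

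The signals that recruit such cells included Ccl2 (a chemokine for monocytes), at 8.01 and 9.38, Ccl20 at 6.36 and 7.96, and Cxcl13 (a chemokine for B cells) at 6.48 and 8.21. In all, 6 of 24 measured chemokine genes were higher and 0 lower, the median being 0.29, and 23 further genes of that list were under the background level on both arrays. Olr1, here the oxidized LDL receptor LOX-1 and not an olfactory receptor, was below the background level in the control and on day 5 and at 8.85 on day 2 (at least 11.4-fold higher than in the control). Toll-like receptor and NF-kB genes had 5 of 30 higher and 0 lower, among them Il1r1 (the interleukin 1 receptor, 1.26) and Myd88 (its adaptor, 1.16). The interferon response went the other way, with 0 of 30 higher and 3 lower. Mx2 differed by -1.48, Usp18 by -1.45 and Rsad2 was at least 2.10-fold lower. NADPH oxidase subunits lay on both sides: Ncf1 and Cybb of the phagocyte oxidase were higher by 1.75 and 1.29, and Nox4, the oxidase of tubule cells, was lower at 14.68 and 13.52.

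**Figure D3:**
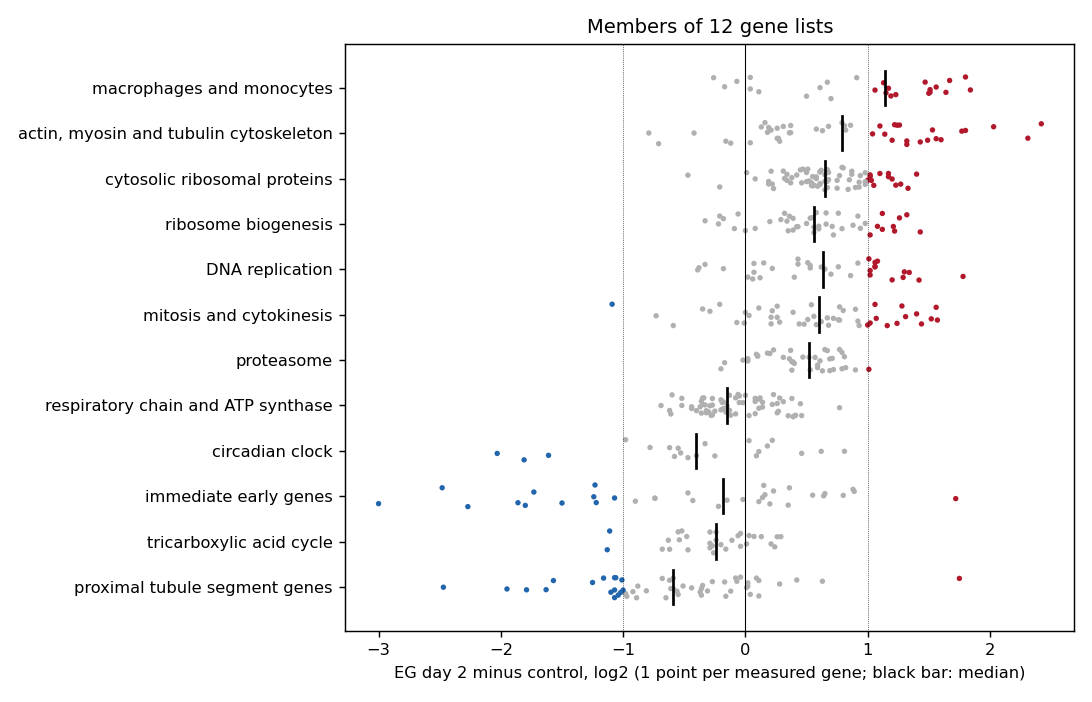
Log2 difference between EG day 2 and control for each measured member of 12 gene lists, 1 point per gene, with the list median as a black bar and dotted lines at a 2-fold difference. Ribosomal protein genes and proteasome genes form narrow clouds to the right of 0, macrophage genes lie mostly beyond 2-fold, and proximal tubule and immediate early genes trail to the left.

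Genes for making ribosomes and proteins were higher by small amounts that ran through nearly whole families. Of 74 measured cytosolic ribosomal protein genes, 72 were above 0, 13 were higher by 2-fold or more and 0 were lower, the median being 0.65 and quartiles of 0.48 and 0.92. Rpsa was at 12.38 and 13.78, Rplp0 at 11.79 and 13.12, and Rpl3 at 12.44 and 13.64, all 3 subunits of the ribosome. Ribosomal protein genes have many processed copies in the genome, and how the probes treat such copies is not given in the sources used here. Ribosome biogenesis had 9 of 45 members higher and 0 lower (median 0.56), among them Nop58 and Fbl, core proteins of the particles that methylate ribosomal RNA, at 9.65 and 11.08 and at 7.69 and 8.95. Amino acid-tRNA ligases had a median of 0.52, with Vars higher by 1.54 and Yars by 1.31. The 68 measured mitochondrial ribosomal proteins had a median of 0.25 with 0 at least 2-fold apart in either direction.

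Proteasome subunits, which break down proteins, were mostly above 0 by small amounts. Of 39 measured proteasome subunits, 36 were above 0 and 1 was higher by 2-fold or more (Psmb1, 1.01), the median being 0.52. In the unfolded protein response 3 of 27 were higher, including Pdia4 (a disulphide isomerase of the endoplasmic reticulum, 1.82), while Xbp1, a transcription factor of that response, was at 11.32 and 11.24. Among heat shock proteins, Cryab (alpha B crystallin, a small chaperone) was at 12.91 in the control and 15.15 on day 2, and Tcp1 (a chaperonin subunit that folds actin and tubulin) was higher by 1.23. Ctsd (cathepsin D, a lysosomal protease) was at 13.52 and 16.69, while Ctsb and Ctsa, other lysosomal proteases, were at 18.39 and 18.04 and at 17.41 and 16.41. The lysosome list as a whole had a median of 0.08 (-0.05 after quantile normalization).

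DNA replication genes had 13 of 36 measured members higher by 2-fold or more and 0 lower, the median being 0.64. Tk1 (thymidine kinase) was at 6.50 in the control, 8.28 on day 2 and 7.04 on day 5. Mcm6 and Mcm4, subunits of the replicative helicase, were at 6.15, 7.57 and 6.47 and at 7.36, 8.70 and 7.11. Each of these genes was higher on day 2 than on either of the other arrays. In mitosis and cytokinesis 13 of 48 were higher and 1 lower (median 0.60), led by Kif20b, a kinesin of dividing cells (1.57), Smc2, a condensin subunit (1.56), and Hmmr, a spindle protein (1.52). Mki67, the proliferation marker Ki-67, was at 8.91 and 9.67. The replication factor Dtl, which marks proteins for destruction in S phase, was below the background level in the control and on day 5 and at 7.23 on day 2. Of cyclins and their inhibitors 1 of 19 was higher (Rbl1, 1.00), Cdkn1a (p21, which halts the cycle) was at 6.05 and 6.84, and Ccnd1 (cyclin D1) at 11.01 and 10.80. The cells that carried these transcripts were not identified, and the macrophage median of 1.14 stood on the same array.

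Genes of DNA replication are known targets of E2F factors, so their start regions were searched for TTTCCCGC and TTTGGCGC on both strands. A motif stood in 9 of 31 replication genes with a window (29.0%), in 276 of all 9934 measured genes (2.78%), in 18 of the 464 genes higher by 2-fold or more (3.88%) and in 0 of 213 lower by 2-fold or more. Within the replication list, 5 of the 9 genes with a motif were higher by 2-fold or more, the median being 1.02, and 6 of the 22 without one, the median being 0.64. The window of Mcm6, at chr13:42404303-42404602 on the minus strand of GRCr8, is shown as an example, with its match in capitals 139 bases before the start.
Mcm6: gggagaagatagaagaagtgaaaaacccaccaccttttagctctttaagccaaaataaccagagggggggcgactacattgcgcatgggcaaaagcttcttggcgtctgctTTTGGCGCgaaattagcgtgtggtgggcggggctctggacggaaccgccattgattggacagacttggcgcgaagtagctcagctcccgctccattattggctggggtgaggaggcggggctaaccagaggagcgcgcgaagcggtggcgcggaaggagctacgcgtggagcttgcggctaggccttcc

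Genes that define the proximal tubule were mostly below 0, and most were within 2-fold. Of 55 measured proximal tubule genes, 44 were below 0, 16 were lower by 2-fold or more (29.1%) and 1 was higher, the median being -0.59. These genes were bright, with median levels of 15.06 log2 in the control and 14.05 on day 2. Among all genes with a mean of both arrays at 14 to 16 log2, 7.22% were lower and the median was -0.045. Slc23a1, the vitamin C transporter of the brush border, was at 15.06 log2 in the control and 12.59 on day 2. Anpep (aminopeptidase N) was at 17.18 and 15.39, Slc5a12 (a lactate transporter) at 17.20 and 15.57, and Slc34a1 (the main phosphate transporter) at 18.70 and 17.54. Other abundant genes of the same cells differed little: Aqp1 (the water channel) was at 17.73 and 17.77, and Slc3a1 (a subunit of the cystine transporter) at 19.01 and 18.89. The 1 member that was higher was Slc13a1, the sulphate transporter, at 16.14 and 17.89. Values this close to the top of the scale, 19.93, may be compressed, so small differences there do not show equal amounts of RNA.

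The HNF1 core stood in 10 of the 46 proximal tubule genes with a window (21.7%) and in 20 of the 213 genes lower by 2-fold or more (9.39%), against 4.94% of all measured genes. It also stood in 5 of the 36 genes higher by 4-fold or more (13.9%) and in 23 of the 464 higher by 2-fold or more (4.96%). The HNF1 core was not alone in this. The letters TATAAA stood in 8 of the 46 proximal tubule genes (17.4%) and in 29 of the 213 lower genes (13.6%). They stood in 52 of the 464 higher genes (11.2%) and in 7.71% of all measured genes. Within the list, 8 of the 10 genes with an HNF1 core were lower by 2-fold or more, the median being -1.09, and 7 of the 36 without one, the median being -0.56. The 10 were Slc34a1, Slc22a8, Slc6a19, Slc6a18, Miox, Pck1, Anpep, Acsm3, Slc23a1 and Kap. The split by motif was made after the values were seen. The start region of Slc23a1, at chr18:27502436-27502735 on the minus strand of GRCr8, holds its HNF1 core 156 bases before the start, in capitals.
Slc23a1: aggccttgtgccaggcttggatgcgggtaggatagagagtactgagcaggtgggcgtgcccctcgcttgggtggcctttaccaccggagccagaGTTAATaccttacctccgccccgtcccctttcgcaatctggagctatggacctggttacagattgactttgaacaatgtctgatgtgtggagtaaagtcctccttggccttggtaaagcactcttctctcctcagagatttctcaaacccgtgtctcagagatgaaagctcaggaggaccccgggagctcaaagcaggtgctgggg

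Lists of solute transport, which are not confined to the proximal tubule, differed in how many members were lower. Glucose, lactate and vitamin C transporters had 6 of 19 lower and 0 higher (median -0.61), including Slc2a5, the fructose transporter, at 9.84 and 8.52. Phosphate and vitamin D genes had 5 of 19 lower and 1 higher (median -0.46), and Calb1 of the distal tubule was among those lower. Slc34a1 and Slc34a3, the kidney phosphate transporters, were lower by log2 differences of -1.16 and -1.07, whereas Slc34a2, the transporter of lung and gut, was at 8.89 in the control, 12.82 on day 2 and 11.20 on day 5. Organic ion transporters split: 4 of 27 were higher and 1 lower. Those higher were Abcb1b and Abcb1a, which encode P-glycoproteins that export drugs, by 3.20 and 1.07, Abcc2, an apical export pump, by 1.76, and Slc22a13 by 1.28, and the uptake transporter Slc22a8 (OAT3) was at 16.11 and 15.01. Amino acid transporters had 3 of 28 lower and 1 higher, Slc6a6 (the taurine transporter), at 12.54 and 14.49.

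Enzymes that could handle EG itself were mostly a little lower. Of 23 measured genes of EG, glyoxylate and oxalate metabolism, 2 were lower by 2-fold or more and 1 higher, the median being -0.35. Adh1 (alcohol dehydrogenase, which begins EG oxidation) was at 12.40 in the control and 10.79 on day 2. Hao2, a hydroxy acid oxidase of the kidney, was at 19.10 and 18.74, Grhpr, which reduces glyoxylate to glycolate, at 14.79 and 13.84, and Dao (D-amino acid oxidase) at 15.72 and 14.44. Ldha, a lactate dehydrogenase subunit that can also turn glyoxylate into oxalate, was the 1 gene that was higher, at 12.73 and 14.16. Other metabolic lists differed in their share of genes lower by 2-fold or more, which was 2.51% over all measured genes. That share was 10.8% for tryptophan and amino acid breakdown and 17.6% for gluconeogenesis and fructose enzymes. For the tricarboxylic acid cycle it was 6.45% and for fatty acid oxidation 4%. Tryptophan and amino acid breakdown had 4 of 37 lower and 1 higher, and a median of -0.47, with Acmsd, which steers tryptophan away from NAD, at 16.40 and 14.45. Gluconeogenesis and fructose enzymes had 3 of 17 lower and 1 higher, and a median of -0.49, with Pck1 lower at 17.29 and 16.27 while its mitochondrial form Pck2 was higher at 8.12 and 9.42. The tricarboxylic acid cycle had 2 of 31 lower and a median of -0.24. Fatty acid oxidation had 3 of 50 higher, 2 lower and a median of -0.07. None of 71 measured respiratory chain and ATP synthase genes was 2-fold apart in either direction, where 4.56% and 2.51% of all measured genes were, and their median was -0.15.

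Outside the proximal tubule, the segments held genes on both sides. The thick ascending limb list had 2 of 18 higher and 2 lower (median -0.32): Ptger3, a prostaglandin E2 receptor, was at 8.80 and 10.73, Cldn19, a claudin needed for magnesium reabsorption, at 8.99 and 10.72, and Egf at 18.02 and 16.81. In the distal convoluted and connecting tubule Trpv5, the calcium entry channel, was at 8.12 and 9.81, while Calb1 (the calcium-binding calbindin) was at 15.43 and 14.39. Intercalated cells, which secrete acid or base, had 0 of 21 higher and 2 lower, with the carbonic anhydrase Car12 at 17.63 and 16.23. The list of principal cells and water transport had 1 of 25 higher and 1 lower. It also holds Aqp1, named above for the proximal tubule, so its counts are not confined to principal cells. Sgk1, the kinase that aldosterone induces, was at 14.52 and 15.86. The lower member was the water transport gene Aqp7, at 12.40 and 11.35, and the segment behind that value was not determined. Kcnk1, a background potassium channel, was at 9.57 and 11.84, and Cldn4, a claudin of the collecting duct, at 6.11 and 8.03. Glomerular and vascular lists lay near the array as a whole, with medians of 0.10 for podocytes and 0.01 for endothelium, the latter -0.10 after quantile normalization.

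**Figure D4:**
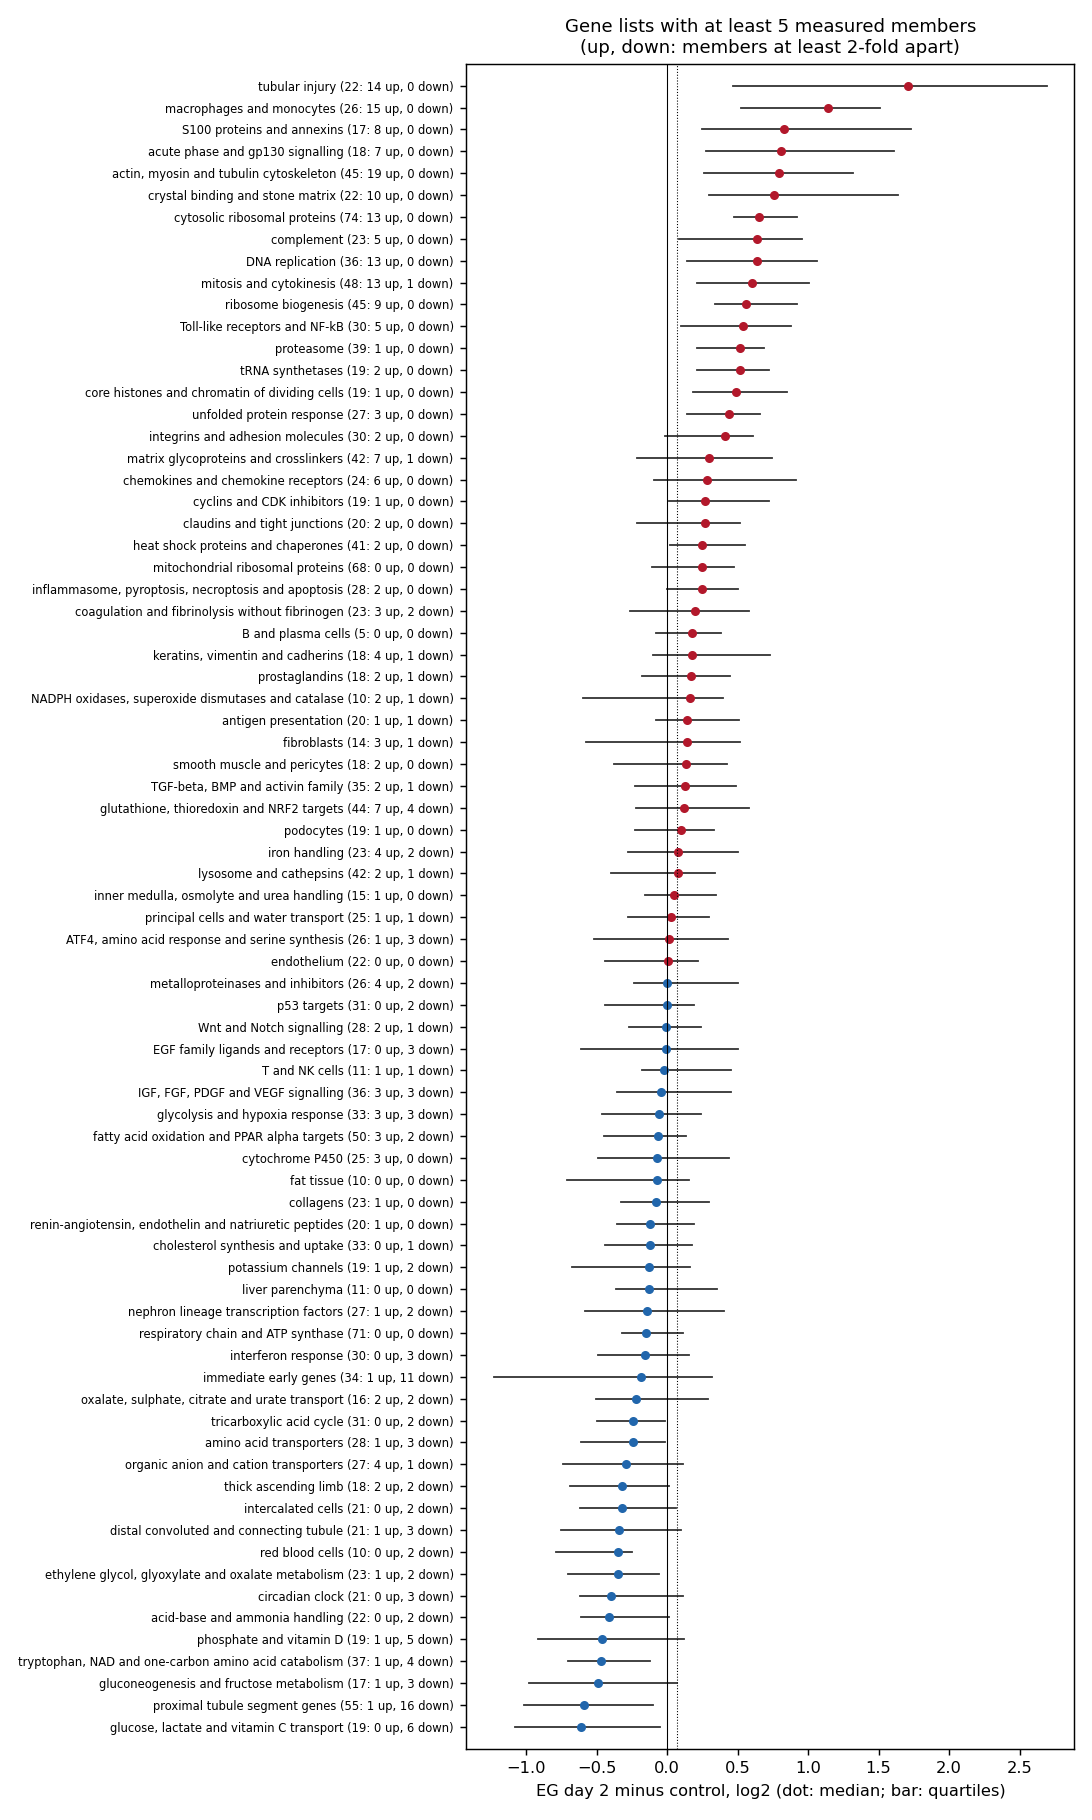
Median log2 difference between EG day 2 and control (dot, red above 0 and blue otherwise) and quartiles (bar) of every gene list with at least 5 measured members, with the number measured and the numbers higher by 2-fold or more and lower in brackets. The solid line is 0 and the dotted line the median of all measured genes, 0.07; tubular injury and macrophage genes stand at the top and proximal tubule and glucose transport genes at the bottom.

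Matrix genes were mixed. Tnc (tenascin C) was at 6.0 and 7.87, Fn1 (fibronectin) at 12.04 and 13.58, and Dcn (decorin) at 14.20 and 16.06. In all 7 of 42 matrix glycoproteins and crosslinkers were higher and 1 lower, while 1 of 23 collagens was higher (Col18a1, 1.01) and 0 were lower, the median being -0.08. Of proteases that act on matrix, Adamts1 was at 9.82 and 12.66 and Adamts4 at 6.21 and 7.67, while Mep1b, a meprin of the brush border, was at 11.56 and 9.95. Cd24, a surface glycoprotein of immature epithelium, was at 15.08 and 17.36. Growth factor genes included lower values for Vegfa (15.73 and 14.54) and for Errfi1, a brake on the EGF receptor (17.52 and 16.15), and Wnt antagonists differed in opposite directions, with Sfrp1 at 7.76 and 9.80 and Sfrp2 at 10.53 and 9.09.

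Protective enzymes were also mixed. Of 44 glutathione, thioredoxin and NRF2 genes, 7 were higher and 4 lower. Gstp1 and Gstm1 (glutathione transferases) were at 11.83 and 13.81 and at 9.31 and 11.08, and Akr1b8 was at least 5.35-fold higher. Gclc, the rate-limiting enzyme of glutathione synthesis, was lower at 19.51 and 18.49. Ppara, a receptor that induces fatty acid oxidation in liver, was at 9.76 and 8.44.

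Lower genes included immediate early genes, which are switched on within minutes of a stimulus. Of 34 measured, 11 were lower by 2-fold or more and 1 was higher, while the median was only -0.19, so the list held a lower tail. Egr1, a zinc finger transcription factor, was at 16.48 in the control, 13.48 on day 2 and 12.10 on day 5. Nr4a1, Nr4a2 and Nr4a3, which form a family of orphan nuclear receptors, differed by -2.27, -1.80 and -1.86, Dusp1 (a phosphatase that switches off MAP kinases) by -1.73 and Ptgs2 (inducible cyclooxygenase) by -2.48. The 1 higher member was Klf6, a zinc finger factor named here after its value was seen, at 8.08 and 9.80. Ddit4, a stress-induced brake on mTOR, was at 11.58 and 9.56.

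Clock genes were lower in 3 of 21 and higher in 0. Nr1d1 (REV-ERB alpha, a repressor of the clock) was at 11.29 in the control, 9.26 on day 2 and 11.42 on day 5, and Per3 (a period gene) was at 7.93, 6.12 and 8.06. Dbp, an output factor of the clock, was at 10.11, 8.50 and 12.34, and Arntl (BMAL1), whose daily rhythm runs opposite to these genes in many tissues, was at 8.37, 9.18 and 6.42. At EG day 2 the first 3 genes were below both other arrays and Arntl was above both. The labels give no time of day, so hour of sampling and treatment cannot be told apart.

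Red cell genes were lower as well, with Hbb (beta globin) at 16.11 and 14.30 and Hba1 (alpha globin) at 15.03 and 13.98. Of 10 measured red blood cell genes 2 were lower by 2-fold or more and 0 higher, the median being -0.35, and the sum of their linear signals on day 2 was 0.381 times that of the control. How the kidneys were perfused or drained is not given in the sources used here, and the part of retained blood in other values was not tested.

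The share of lower genes varied with the level at which a gene was read. With genes above background on both arrays classed by the mean of both, 4.05% of the 173 genes at 16 to 20 log2 were higher by 2-fold or more and 10.4% lower, and the class median was -0.07. Between 10 and 12 log2 the shares were 3.28% and 1.80% of 2167 genes. Classing by the control value alone, which also enters the difference, gave 1.66% and 15.5% in the brightest class. Both ways of classing were chosen after seeing the data, the control first and the mean after it, and the mean is shown because measurement noise in the control shifts the first by construction.

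**Figure D5:**
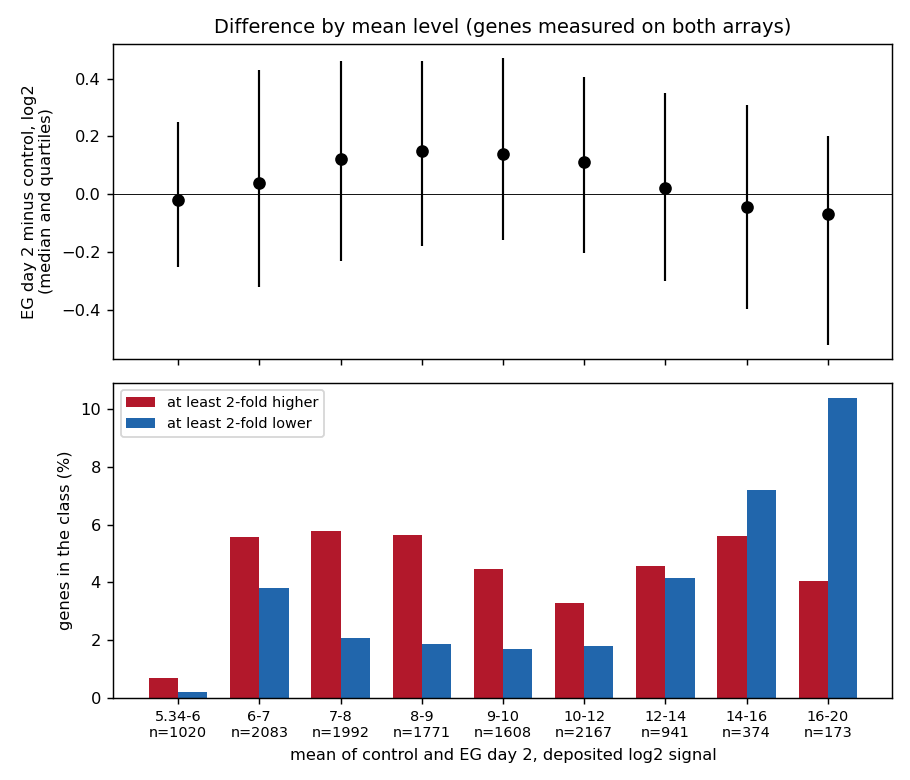
Genes above the background level on both arrays in 9 classes of the mean signal of control and EG day 2 (deposited log2), with the number of genes under each class: median and quartiles of the log2 difference between EG day 2 and control above, and the percentage of genes higher (red) or lower (blue) by 2-fold or more below. The share of lower genes is 10.4% in the brightest class, where the share of higher genes is 4.05%.

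Genes outside any list stood among the leaders too. LOC685828 was at 8.84 in the control, 5.63 on day 2 and 8.13 on day 5, a difference of -3.21 on day 2. The mean over its clusters differed by -1.10, but no further cluster of LOC685828 reached the background level in the control or on day 2. Tmem252, which encodes a transmembrane protein, was at 13.22 in the control and 10.92 on day 2. Gstz1, which encodes maleylacetoacetate isomerase of tyrosine breakdown, was at 11.48 and 9.66. Hist1h1b, a linker histone of dividing cells, was at 5.47 and 8.22, and Fam129a at 7.0 and 9.57. Of 358 genes with a further measured cluster, 21 were at least 2-fold apart by their brightest cluster, and for 20 of these the further cluster differed in the same direction, 10 of them by at least 2-fold.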

How the data were processed

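Kidney RNA of 3 male rats was isolated with a column kit, labelled with biotin and hybridised to rat Clariom S arrays, 1 array per rat, per the labels. The deposited values are log2 signals of transcript clusters, each a group of probes for 1 transcribed locus, which the authors made with Transcriptome Analysis Console on build rn6, per the submitters' processing notes. For its version, its background correction and any normalization the entry is: not given in the sources used here. One label speaks of treatment for 2 or 5 days and another of sampling that long afterwards, so single and repeated dosing cannot be told apart. Both deposited tables held equal values (69564 of 69564 compared, to 2 decimals). The highest is 19.93, and 232 clusters lie above the 16 log2 units that a 16-bit scanner can record, so the folds are on a transformed scale that can stretch or compress differences in RNA. The number of arrays limits the precision.

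Of 23188 clusters, 21502 named 1 gene, and 1686 that named several or none were not used. The brightest cluster by mean over the arrays stood for each gene (776 genes had several). Values under the 95th percentile of 1057 Olr genes were set to that level. A gene under it on 1 array gives a lower bound, written "at least". Genes 2-fold and 4-fold apart were counted, with no test and no error, since each group is 1 rat. The steps were tested on simulated data with known differences. Python 3.11.15, numpy 2.4.6, pandas 2.3.3, R 4.3.3 and limma 3.58.1 were used.

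The genes named are the 25 largest differences in each direction among genes above the level on both arrays, the 12 largest lower bounds each way, the 5 measured members that differed most in each list, the 2 members of each list brightest in the control, and a set of names chosen for injury, kidney and reference genes. This made 492 genes. Neighbouring genes, motif holders, markers under the background level and the remaining members of small counts were named after their values were seen. Some genes are not reported here. The 81 gene lists hold 2644 entries, of which 2526 are on the array. Members, lists and names were chosen with earlier results of these data known, so none is independent support. Start regions are RefSeq's for GRCr8; of the array's gene names 16215 matched a current symbol and 1975 an older one. Alternatives were another background level or none, quantile normalization, cyclic loess, median centring, and the mean over a gene's clusters.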

Additional observations from a re-analysis of the deposited data

Results flagged for a closer look

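Dbp, Rsad2 and Sgk1 stood on opposite sides of the control, at least 2-fold each way, on the 2 EG arrays, and the difference between the days was not tested. The values share 1 control array. Dbp, a clock output gene, differed by -1.61 on day 2, with 10.11 log2 in the control, 8.50 on day 2 and 12.34 on day 5. Rsad2, an interferon-induced antiviral gene, was at 6.41, 5.25 and 7.51 and so differed by -1.07 on day 2, a lower bound because the day 2 value lies under the background level. Sgk1, a kinase induced by aldosterone and glucocorticoids, was at 14.52, 15.86 and 12.89 and differed by 1.34 on day 2.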

How the results depend on the processing

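The count of genes lower by 2-fold or more was 503 with the background level at the median of the Olr genes and 601 with none, settings that test more genes, and held all 332 of the reported ones in both. Higher genes numbered 739 and 799 in those settings. The other 4 alternatives gave 324 to 398 lower and 466 to 596 higher genes, and over all 6 there were 41 to 60 higher by 4-fold or more and 11 to 14 lower by 4-fold or more. Quantile normalization gave 466 higher and 398 lower genes, a share of higher genes of 53.9% against 64.5%. Of 250 named genes at least 2-fold apart, 222 were so under all 6 alternatives, and of the 492 named genes 0 changed sign while called. Medians of lists near 0 changed sign in places, and the cause was not tested: liver parenchyma from -0.13 to 0.12, endothelium from 0.01 to -0.10, lysosome from 0.08 to -0.05 and smooth muscle from 0.14 to -0.03. Near 2-fold, Egf was at -0.91 and Slc22a8 at -0.99 with quantile normalization, and Slc34a1 at -0.98 with cyclic loess. Classes of genes by level were chosen after seeing the data: in the brightest class, the mean of both arrays gave 4.05% higher and 10.4% lower, and the control alone 1.66% and 15.5%. No paired analysis was possible because each group is 1 array. Nothing here measures how rats differ from each other.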

Other observations

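Gene families were also grouped by the stem of their symbols, after the values were seen, which gives a description with no test. The grouping gave 202 stems with at least 8 measured genes, and the stems counted below were picked from them. Over all measured genes 4.56% were higher and 2.51% lower by 2-fold or more. Flavin-containing monooxygenases, enzymes that oxidise nitrogen and sulphur compounds, differed among themselves: Fmo1 was at 14.22 log2 in the control and 12.75 on day 2, and Fmo4 at 14.13 and 12.44. Fmo2, at 12.93 and 13.17, and Fmo5, at 9.28 and 9.84, were not 2-fold apart. All 8 measured serine protease inhibitors of the Spink stem were below 0, 2 of them at least 2-fold, the median being -0.51. Spink12 was at 6.56 in the control and under the background level on day 2. Other stems leaned the same way. Defb genes (defensins) had 12 of 16 below 0 and 4 above, and genes of the Olr stem 55 of 75 below and 18 above. Their medians were -0.56 and -0.14. The Olr genes set the background level, so those counted are the ones that passed it on 1 or both arrays. The stem also takes in Olr1, which is LOX-1. Over all genes, 623 passed the level in the control only and 486 on day 2 only. No conclusion is drawn from the lean of the Olr stem. A cause was not tested. Spink12 shared its values with LOC100911241 on all 3 arrays.

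Genes of the Hist stem had 9 of 28 measured members higher by 2-fold or more and 0 lower, the median being 0.68, and 5 of 8 Mcm genes were higher by 2-fold or more, the median being 1.04. Translation elongation factors of the Eef stem had 3 of 8 higher and a median of 0.75. Nuclear receptors of the Nr stem had 4 of 20 lower and 0 higher. The 4 were Nr1d1, Nr4a1, Nr4a2 and Nr4a3, already named above among clock and immediate early genes. Array clusters that the annotation leaves unassigned to a transcript class had 6 of 43 measured genes lower by 2-fold or more and 0 higher, the median being -0.27.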
